A study of Mus musculus with 8 samples.

Results

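The choroid plexus spots were the places on 8 coronal sections of mouse brain where RNA of 7 choroid plexus genes was most concentrated. A spot was kept if it held at least 200 genes and at most 30% mitochondrial UMIs (unique molecular identifiers, each standing for 1 captured RNA molecule). Members were chosen by a score, the summed UMIs of Ttr, Ecrg4, Calml4, Kcne2, Folr1, Kcnj13 and Kl per 10000 UMIs of the spot, and the 1% of kept spots with the highest score was taken in each section. This gave 213 choroid plexus spots of 21328 kept spots. Of these, 28 and 27 lay in the 2 sections labelled PTX+ABT263, 28 and 28 in PTX+GCV, 26 and 27 in PTX, and 23 and 26 in Control. Since the score selected the members, their levels against the other spots are a description, given without a test.

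Visium arrays capture RNA from a section of 10 µm in spots 55 µm wide whose centres lie 100 µm apart, so a spot can hold several cells of different types. Every group was of p16-3MR mice labelled male and 9 to 10 months old, with brains taken 6 months after PTX. In these mice the promoter of p16Ink4a drives a fusion protein that includes a red fluorescent protein and a viral thymidine kinase, which lets ganciclovir (GCV) kill cells that express it. Mice of the PTX+ABT263 group received paclitaxel (PTX, a taxane that stabilizes microtubules) at 5 mg/kg/day in 2 cycles of 5 days with 7 days between, and later ABT263 (navitoclax, an inhibitor of the BCL-2 family) at 1.5 mg/kg/day. Mice of the PTX+GCV group received the same PTX and later GCV at 25 mg/kg/day, each senolytic for 5 days in 2 cycles 2 weeks apart. PTX mice received the same PTX and, by the paper, vehicle in place of a senolytic. Control mice received the vehicle of PTX, DMSO with saline. There were 2 sections per group, and the sources used here do not say whether they came from separate mice, so p-values measure the spread between sections.

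The choroid plexus is a folded tissue in the brain ventricles. A single layer of cuboidal epithelial cells, joined by tight junctions, surrounds a core of leaky capillaries, fibroblasts and macrophages. The epithelium secretes cerebrospinal fluid by moving ions and water, and releases carrier and growth factor proteins into it, transthyretin (Ttr) most prominently. Its lineage is shared with the ciliated ependymal cells that line the ventricles.

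The choroid plexus spots of a section held 542902 and 401916 UMIs in the sections labelled PTX+ABT263, 122043 and 127139 in PTX+GCV, 283014 and 404611 in PTX, and 241637 and 281464 in Control. The PTX+GCV sections were thus the shallowest in these spots, with a median of 2654 and 3874 UMIs per spot against 7037 to 15405 in the other 6 sections. Median mitochondrial shares per spot ran between 7.20% and 10.2% in choroid plexus spots and between 9.97% and 15.1% in the other kept spots. The sections labelled PTX+ABT263 went against their label of male mice. The X-inactivation transcript Xist had 13 and 7 UMIs in their choroid plexus spots and 741 and 688 in their other spots, and at most 1 UMI in the other spots of each other section, while the Y-linked Ddx3y had 17 and 0 UMIs in their other spots against 700 to 1341 elsewhere. The comparison of these sections with PTX therefore also compares unlike sexes, and drug and sex cannot be told apart. Array positions are reused between slides, and 970 of 4794 barcodes occurred in all 8 sections.

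The members lay together within each section. Of 213 choroid plexus spots, 205 touched another one, and the largest connected patch held 18 and 21 spots in the sections labelled PTX+ABT263, 27 and 21 in PTX+GCV, 26 and 12 in PTX, and 22 and 25 in Control. PTX+ABT263 section 1 and PTX section 2 also had members far below the main patch, near the edge of the tissue. The position of a spot was not part of the rule.

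**Figure D1:**
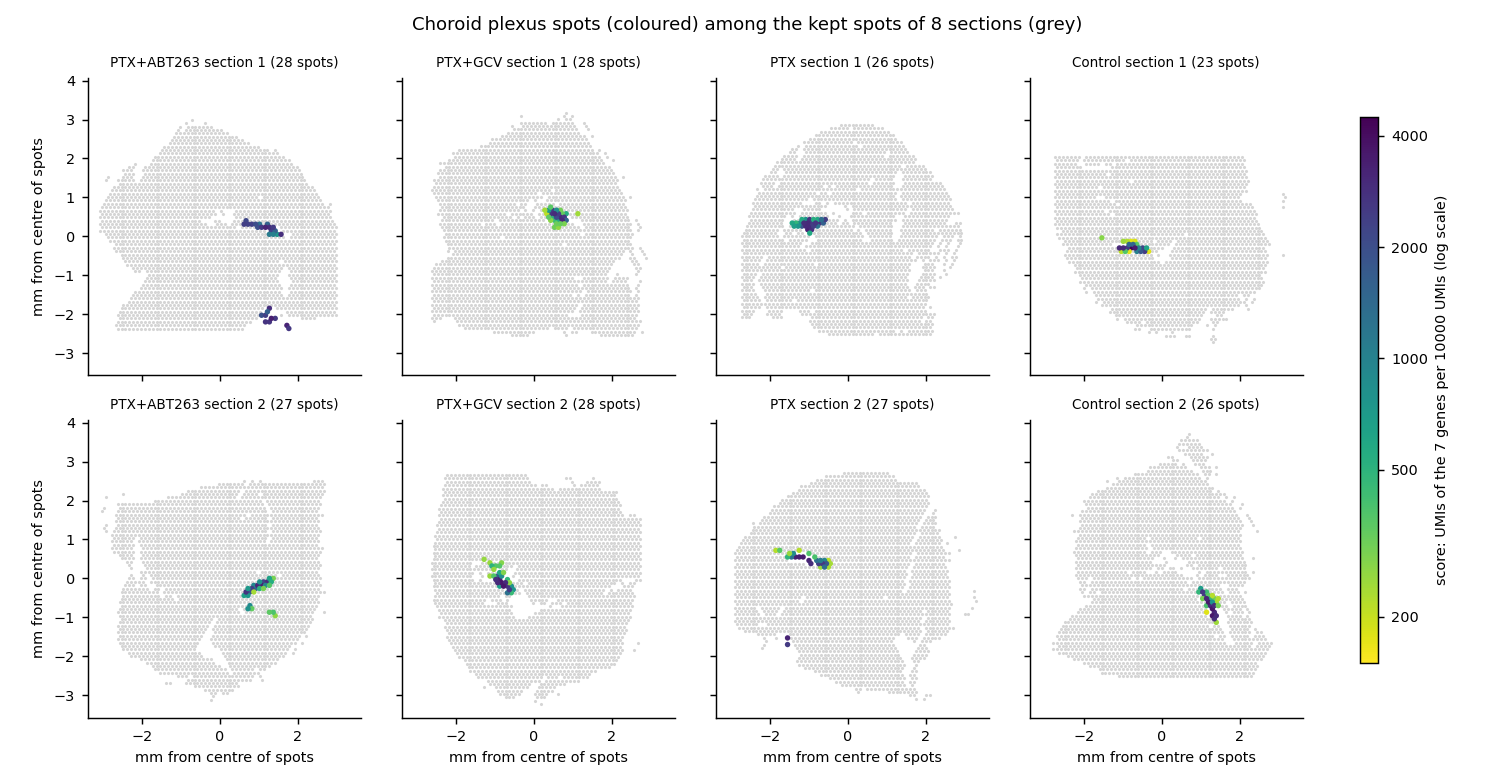
Maps of the 8 sections, with horizontal and vertical distance from the centre of the kept spots in mm. Kept spots are grey and choroid plexus spots are coloured by their score on a log scale, and 205 of the 213 touch another member.

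Scores were spread over more than an order of magnitude, between 175 and 4330, and 106 of the 213 spots lay at 1000 or above. The median score was 2358 and 732 for the sections labelled PTX+ABT263, 474 and 616 in PTX+GCV, 1720 and 1094 in PTX, and 998 and 584 in Control. Hence 2 sections of a group differed as much as the groups did. At the threshold, the lowest member and the highest spot left out scored 746 and 693 in PTX+ABT263 section 1, 237 and 227 in PTX+ABT263 section 2, 212 and 210 in PTX+GCV section 1, 252.0 and 249.8 in PTX+GCV section 2, 482 and 436 in PTX section 1, 213 and 211 in PTX section 2, 175 and 146 in Control section 1, and 177 and 175 in Control section 2. Because the rule takes a fixed share of spots, a section with more choroid plexus tissue has a higher threshold. At a fixed score of 500 or more there were 32 and 19 spots in the sections labelled PTX+ABT263, 13 and 15 in PTX+GCV, 25 and 16 in PTX, and 13 and 13 in Control.

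**Figure D2:**
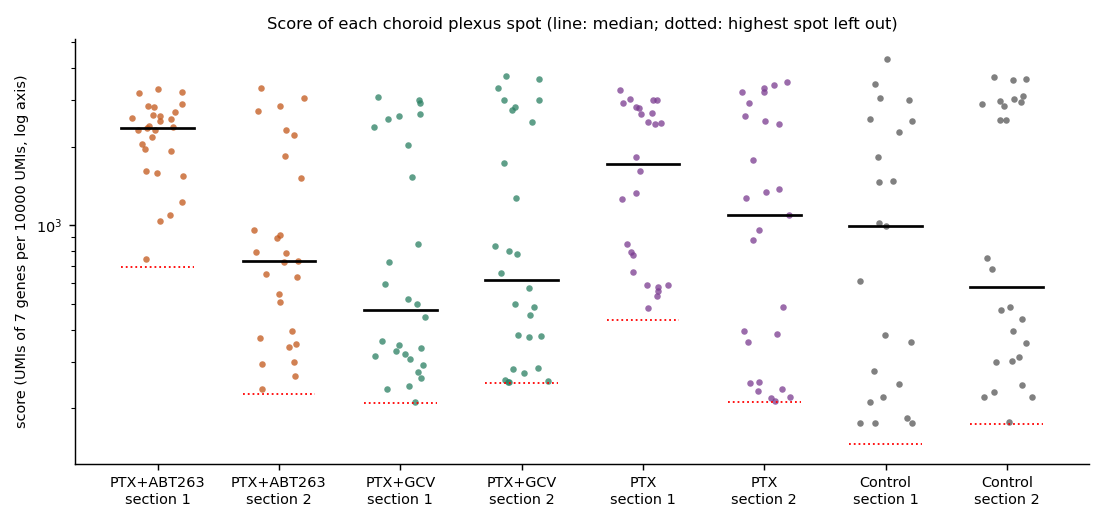
The score of each choroid plexus spot (UMIs of the 7 genes per 10000 UMIs, log axis) by section, with the median as a line and the highest spot left out as a dotted line. In the plot, 106 spots lie at 1000 or above and the rest reach down to the threshold of their section. PTX+ABT263 section 1 has 27 of 28 spots above 1000.

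Ttr, which carries thyroid hormone, made up 98.1% to 98.4% of the score's UMIs in each section. As CPM, UMIs per 1000000 UMIs of the choroid plexus spots of a section, Ttr had 235200 and 171000 CPM for the sections labelled PTX+ABT263, 186700 and 213600 in PTX+GCV, 242300 and 212200 in PTX, and 202700 and 241000 in Control. In the other kept spots it ran between 198 and 599 CPM. The members held 66.3% to 91.5% of all Ttr UMIs of their section. The 4 groups overlapped in the level of Ttr.

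Ecrg4, a secreted peptide precursor, had 1739 and 1182 CPM in the choroid plexus spots of the sections labelled PTX+ABT263, 1254 and 1345 in PTX+GCV, 1798 and 1584 in PTX, and 1415 and 1673 in Control. For Kl (klotho, a co-receptor for FGF23) the levels were 1140 and 816 CPM in the sections labelled PTX+ABT263, 795 and 747 in PTX+GCV, 1152 and 858 in PTX, and 786 and 1045 in Control. Kl thus had its 2 highest levels in PTX+ABT263 section 1 and PTX section 1, and its lowest in PTX+GCV section 2. Calml4, a calmodulin-like protein, ran between 336 and 530 CPM over the 8 sections, the folate receptor Folr1 between 352 and 600, the potassium channel Kcnj13 between 262 and 442, and the potassium channel subunit Kcne2 between 209 and 391. None of these 6 genes exceeded 7 CPM in the other kept spots of any section.

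Not every member carried all 7 genes. All 7 were found in 104 of the 213 spots and at least 3 of the 6 genes beside Ttr in 160, while 17 spots held Ttr only. Of those 17, 15 were in PTX+GCV, where spots had the fewest UMIs, 1 was in PTX section 1 and 1 in Control section 2. Ranking spots by the 6 genes without Ttr would have chosen 155 of the same 213 spots. In PTX+GCV it would have chosen 15 and 17 of the 28 members per section, beside 26 of 28 in PTX+ABT263 section 1. The member with the fewest UMIs, in PTX+GCV section 2, held 281 UMIs, 8 of them of Ttr.

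Outside the score, the choroid plexus spots summed per section were high in most listed genes of the epithelium. Such sums weigh most on members with many UMIs and do not describe each member. Of 7506 genes with a mean of at least 20 CPM in choroid plexus or other spots, 592 (7.89%) were at least 2-fold higher in choroid plexus spots than in the other kept spots in each of the 8 sections, and 652 (8.69%) were at least 2-fold lower in each. Of 69 choroid plexus genes outside the score, listed with earlier results of these data known, 56 were counted, 47 were at least 2-fold higher in each section and 0 lower in each. Their median log2 fold was 3.55, beside -0.11 over all genes counted. CPM in this and the following paragraphs on levels against other spots are based on totals without the 7 score genes, and log2 folds add a prior count of 2.

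Among secreted proteins, Enpp2 (autotaxin, which makes lysophosphatidic acid) had 20050 and 12460 CPM in choroid plexus spots of the sections labelled PTX+ABT263, 16080 and 18970 in PTX+GCV, 21420 and 18980 in PTX, and 12270 and 20560 in Control, against 159 to 214 CPM in the other spots. Its mean log2 fold of 6.52 was the highest of the genes ranked. Rankings by fold, here and below, leave out genes with only a model number for a name. Insulin-like growth factor 2 (Igf2) had 1187 and 805 CPM, 941 and 1045 CPM, 878 and 892 CPM, and 1116 and 1375 CPM in choroid plexus spots of PTX+ABT263, PTX+GCV, PTX and Control, against 15.4 to 21.9 CPM in the other spots. Its binding protein Igfbp2 ran between 1064 and 2024 CPM against 29.4 to 40.2 CPM, angiotensin-converting enzyme (Ace) between 506 and 1089 CPM against 9.22 to 14.4 CPM, and the BMP and Wnt antagonist Sostdc1 between 271 and 570 CPM against 2.34 to 4.40 CPM. Coagulation factor V (F5), the lipopolysaccharide-binding protein Lbp, the collagen chain Col9a3 and the protease inhibitor-like Wfdc2 were also among the 15 genes with the highest folds, with mean log2 folds of 5.30, 5.24, 5.23 and 5.13. Of 14 secreted proteins counted, 12 were higher in each section (median log2 fold 3.54). Cystatin C (Cst3), with 3903 to 5707 CPM in choroid plexus spots and 3020 to 3817 CPM in the others, was not.

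Of genes for ion and water movement, 14 of 18 counted were higher in each section (median log2 fold 2.95). The chloride channel protein Clic6 had 1076 and 720 CPM in choroid plexus spots of the sections labelled PTX+ABT263, 718 and 683 in PTX+GCV, 1018 and 817 in PTX, and 720 and 767 in Control, against 4.26 to 7.32 CPM in the other spots. The bicarbonate transporter Slc4a5 ran between 214 and 455 CPM against 0.204 to 0.928 CPM. The cation channel Trpm3 ran between 567 and 951 CPM against 36.1 to 42.9 CPM, and carbonic anhydrase 2 (Car2) between 532 and 981 CPM against 223 to 300 CPM. The sodium pump subunit Atp1b1, which neurons also use, was not higher in choroid plexus spots, with 803 to 1541 CPM against 1470 to 1960 CPM.

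Carriers of organic solutes were higher in each section for 14 of 15 genes counted (median log2 fold 3.58). The retinol dehydrogenase Rdh5 ran between 334 and 648 CPM in choroid plexus spots against 5.96 to 7.71 CPM in the others, the thyroid hormone transporter Slco1c1 between 273 and 485 CPM against 24.2 to 34.3 CPM, and the monoamine transporter Slc29a4 between 274 and 444 CPM against 9.50 to 12.5 CPM. Among receptors and transcription factors, 7 of 9 were higher in each section (median log2 fold 3.73). The homeobox factor Msx1 had 315 and 256 CPM in choroid plexus spots of the sections labelled PTX+ABT263, 354 and 251 in PTX+GCV, 296 and 230 in PTX, and 271 and 278 in Control, against at most 2.07 CPM in the other spots. Serotonin receptor 2C (Htr2c) was closer to the rest, with 217 to 427 CPM against 31.9 to 49.5 CPM. Neurons are known to express it too. Tight-junction and keratin genes were higher in each section for 8 of 9 counted (median log2 fold 3.16), among them claudin 2 (Cldn2), with 106 to 233 CPM against 0.204 to 0.557 CPM, and keratin 18 (Krt18), with 90.4 to 235 CPM against 0.274 to 1.22 CPM. Cox8b, a subunit of cytochrome c oxidase best known from muscle and brown fat, came next to Enpp2 in fold (mean log2 fold 6.32). Of the 15 leading genes it varied most between sections, with 2002 and 1362 CPM in the sections labelled PTX+ABT263, 536 and 613 in PTX+GCV, 1220 and 552 in PTX, and 876 and 1135 in Control.

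**Figure D3:**
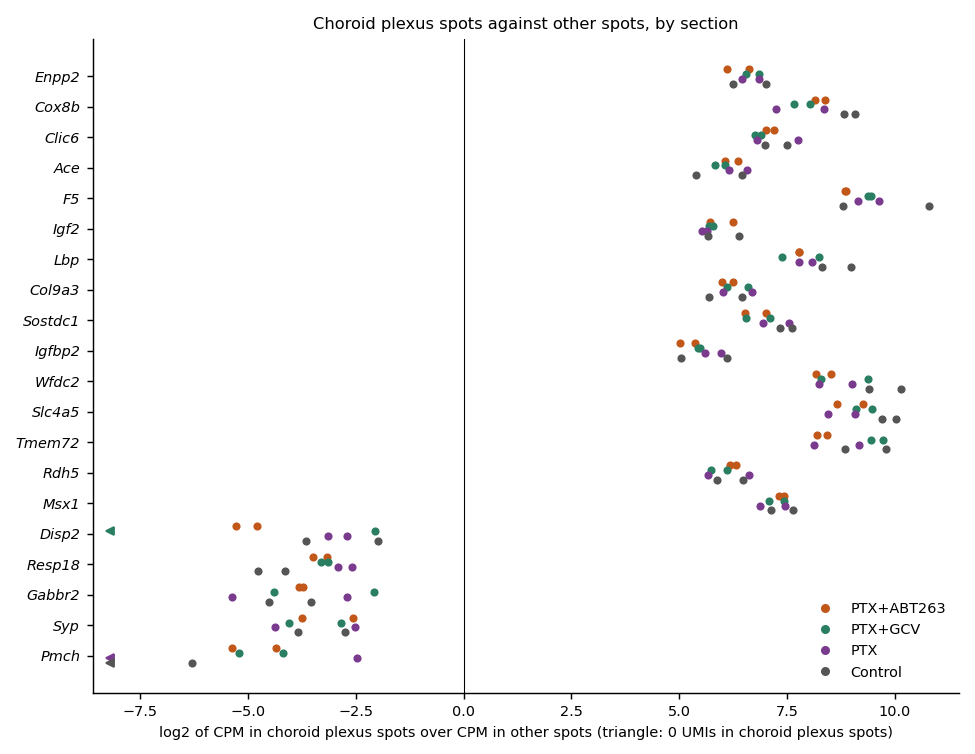
Log2 ratio of CPM in choroid plexus spots to CPM in the other kept spots of the same section, for the 15 highest and 5 lowest genes outside the score, in the order of their mean log2 fold with a prior count of 2 and with 1 point per section. The points carry no prior count. Triangles mark sections with 0 UMIs in choroid plexus spots. Enpp2 is 68.7 to 129 times higher and the points of the 4 groups are mixed for most genes.

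Genes listed for neighbouring cell types and for interferon response were described in the same way. A spot can hold several cell types, so these levels do not tell which cells, epithelium included, held the RNA. All 12 genes of ependyma and motile cilia that were counted were at least 2-fold higher in each section (median log2 fold 3.34), and their summed level ran between 1953 and 2623 CPM in choroid plexus spots against 105 to 131 CPM in the others. The cilia gene Rsph1 ran between 141 and 224 CPM against 3.29 to 5.49 CPM. Of 7 fibroblast genes 5 were higher in each section, for example matrix Gla protein (Mgp), with 360 to 882 CPM against 23.7 to 37.0 CPM, and Pcolce, an enhancer of collagen processing, with 169 to 276 CPM against 3.48 to 5.57 CPM. Endothelial genes were higher in each section for 1 of 10 (median log2 fold 0.74) and pericyte genes for 0 of 4 (0.72). Of 11 macrophage and microglia genes 3 were higher in each, among them Cd74, the invariant chain of MHC class II, with 18.8 to 187 CPM against 2.77 to 5.66 CPM, while the microglial complement gene C1qb ran between 28.3 and 172 CPM against 84.0 to 104 CPM. Of 6 genes of interferon response and MHC class I 4 were higher in each section (median log2 fold 2.23), with Ifi27 between 449 and 788 CPM against 42.0 to 49.2 CPM and Bst2 between 151 and 244 CPM against 4.50 to 8.30 CPM.

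Neuronal RNA was low. Of 12 neuronal genes 11 were at least 2-fold lower in each section (median log2 fold -2.46), and their summed level ran between 700.3 and 2020 CPM against 6168 to 7660 CPM in the other spots. The synaptic protein Snap25 had 291 and 660 CPM in choroid plexus spots of the sections labelled PTX+ABT263, 374 and 814 in PTX+GCV, 390 and 656 in PTX, and 339 and 457 in Control, against 2643 to 3116 CPM in the other spots. Synaptophysin (Syp), the GABA-B receptor subunit Gabbr2, Resp18 and Disp2 were among the 5 lowest genes, with mean log2 folds of -3.11, -3.10, -3.03 and -3.01. The lowest of these, Pmch, which encodes melanin-concentrating hormone of the lateral hypothalamus, had 0 to 65.4 CPM in choroid plexus spots. In the other spots it had 1338 and 495 CPM in the sections labelled PTX+ABT263 and 748 and 728 in PTX+GCV. There were 51.7 and 0.610 CPM in PTX, and 816 and 55.55 in Control. In PTX section 2 its level was thus too low to show a difference. Whether the sections lie at the same level of the brain was not tested. Astrocyte genes summed to between 928 and 2274 CPM in choroid plexus spots and between 2853 and 3669 CPM in the others.

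Oligodendrocyte genes did not follow the neurons. They summed to 3199 and 7724 CPM in choroid plexus spots of the sections labelled PTX+ABT263, 13660 and 11130 in PTX+GCV, 5659 and 11630 in PTX, and 8970 and 5777 in Control, against 4032 to 6189 CPM in the other spots. The content of myelin RNA thus differed several-fold between sections, also within a group. Myelin basic protein (Mbp) had 1459 and 3851 CPM in choroid plexus spots of the sections labelled PTX+ABT263, 5574 and 4712 in PTX+GCV, 2135 and 5065 in PTX, and 4376 and 2448 in Control. In other spots that touch a member the oligodendrocyte genes summed to 12720 to 45120 CPM, and in each section this was above the level in its members. Fewer cells of a type in a spot and less RNA per cell cannot be told apart in such sums, here or in the comparisons of groups.

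Within a section, members varied along the same axis. Over the 23 to 28 members of a section, Spearman's correlation of the score with the summed level of the 4 choroid plexus lists outside the score was 0.792 to 0.938 in the 8 sections. With the oligodendrocyte genes it was -0.865 to -0.523, with astrocyte genes -0.746 to -0.523 and with fibroblast genes 0.541 to 0.809. For ependymal genes it ran between -0.585 and 0.476, with no shared sign. These are descriptions without a test, since the spots of a section share a library and the levels of a spot share 1 total. Members with low scores had the most myelin and astrocyte RNA.

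Levels fell off with distance from the members. In CPM of all UMIs, Ttr ran between 171000 and 242300 in members, 7168 and 20490 at 1 spot spacing, 2370 and 6525 at 2 spacings, 1267 and 4627 at 3 spacings, and 87.1 and 270 beyond 10 spacings. Enpp2 ran between 9738 and 16130 CPM in members, 760 and 2222 at 1 spacing, 368 and 1374 at 2 spacings, and 133 and 168 beyond 10 spacings. The ependymal gene Ccdc153 ran between 74.6 and 134 CPM in members and 15.5 and 289 CPM at 1 spacing, and in PTX+ABT263 section 1, PTX section 1 and Control section 2 it was higher at 1 spacing than in the members. Mbp ran between 1109 and 4515 CPM in members, 4669 and 20800 at 1 spacing, 2411 and 16200 at 2 spacings, and 1780 and 2322 beyond 10 spacings. Snap25 ran between 221 and 637 CPM in members and 2362 and 3025 beyond 10 spacings. At 1 spacing each section had more Mbp than beyond 10 spacings, and 7 of 8 sections had less Snap25, PTX+GCV section 2 being the exception with 3752 CPM at 1 spacing.

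**Figure D4:**
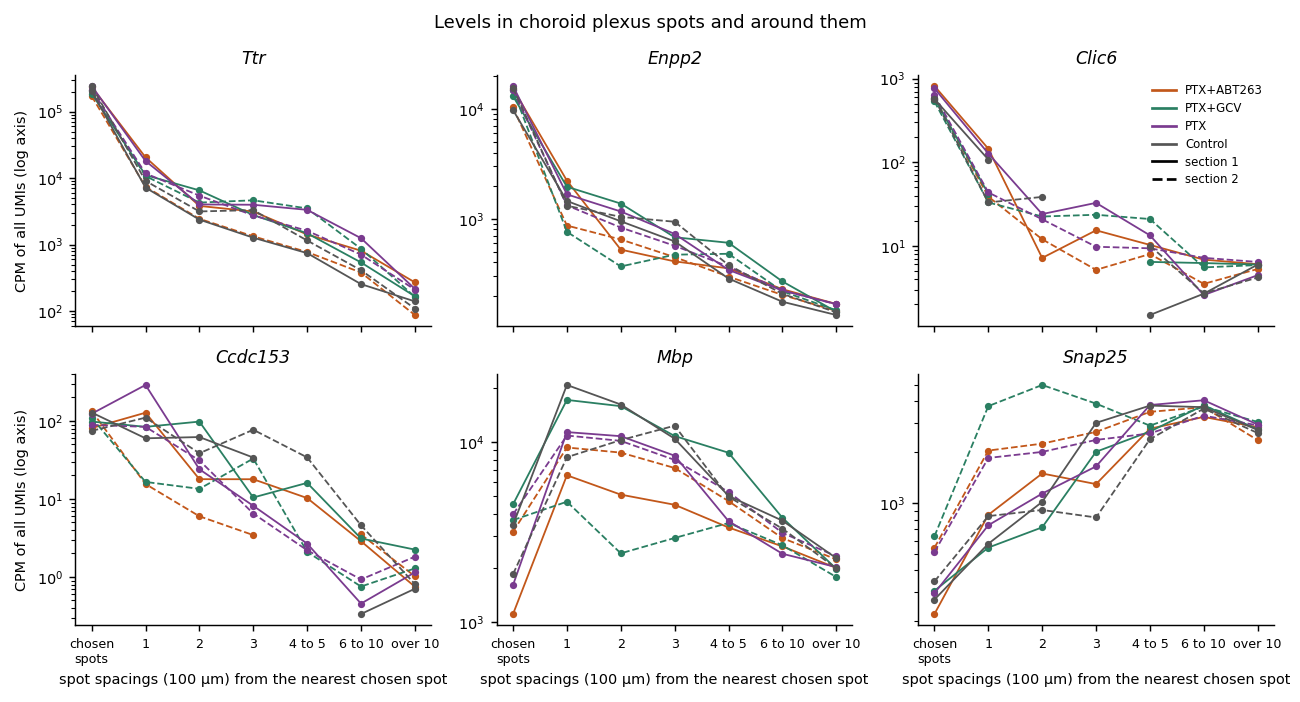
CPM of all UMIs (log axis) of Ttr, Enpp2, Clic6, Ccdc153, Mbp and Snap25 by distance from the nearest choroid plexus spot, in spot spacings of 100 µm, with 1 line per section (solid for section 1, dashed for section 2) and no point where a section has 0 UMIs. Ttr, Enpp2 and Clic6 drop steeply in the first step, Ccdc153 is higher at 1 spacing than in the members in 3 sections, and Mbp rises outside the members while Snap25 is lowest in them.

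PTX against Control addressed whether PTX treatment changed the choroid plexus. In PTX sections, 7 genes fell and 0 rose. The 7 were non-coding transcripts, 2 short mitochondrial genes, a mitochondrial tRNA synthetase and a helix-loop-helix factor, and no gene of the 4 choroid plexus lists was among them. UMIs were summed over the choroid plexus spots of each section, without the 7 score genes, and tested with edgeR's quasi-likelihood test over 4882 genes with Benjamini-Hochberg adjustment at 0.05. The 7 genes that fell were 0.143% of those tested and the genes that rose 0%. At an unadjusted p under 0.05 there were 245 genes, and DESeq2 called 4. CPM in this and the following comparisons are scaled by TMM factors.

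Lars2, the mitochondrial leucyl-tRNA synthetase, had 132 and 180 CPM in PTX and 1688 and 1095 CPM in Control (log2 fold change -3.13, SE 0.34, adjusted p = 1.6e-05). Gm42418, which RefSeq holds as a pseudogene named Rn18s-rs5 after 18S ribosomal RNA, had 1375 and 1512 CPM in PTX and 12160 and 11200 CPM in Control (-3.02, SE 0.36, adjusted p = 4.7e-05). Reads of such a copy cannot be told from those of ribosomal RNA. It has a model number for a name and was singled out after its values were seen. The long non-coding RNA Cdr1os had 99.2 and 85.2 CPM in PTX and 376 and 446 CPM in Control (-2.17, SE 0.32, adjusted p = 0.000851). Bc1, a small non-coding RNA of neuronal dendrites, had 7929 and 6562 CPM in PTX and 26720 and 22240 CPM in Control (-1.76, SE 0.30, adjusted p = 0.00469). These 4 transcripts were lower in PTX in the other spots of the same sections as well, with log2 fold changes of -2.01 for Lars2, -1.90 for Gm42418, -1.11 for Cdr1os and -1.14 for Bc1. Sections of a group also differed there, with 721 and 223 CPM of Lars2 in Control and 24630 and 13910 CPM of Bc1 in PTX. In choroid plexus spots, Bc1 did not pass with DESeq2 (adjusted p = 0.632). Neither Bc1 nor Cdr1os passed with the highest 2% of spots.

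For the remaining 3 genes the other spots showed little difference. Mitochondrial mt-Nd4l, a subunit of complex I, had 317 and 262 CPM in PTX and 711 and 809 CPM in Control (-1.40, SE 0.24, adjusted p = 0.00469), beside -0.14 in the other spots. The ATP synthase subunit mt-Atp8 had 175 and 201 CPM in PTX and 481 and 610 CPM in Control (-1.53, SE 0.30, adjusted p = 0.0217), beside -0.16 in the other spots. Both genes overlap a larger neighbour on the mitochondrial genome, and those neighbours did not pass, with log2 fold changes of -0.09 for mt-Nd4 and -0.08 for mt-Atp6. Id4, an inhibitor of DNA binding by basic helix-loop-helix factors, had 89.8 and 97.4 CPM in PTX and 355 and 223 CPM in Control (-1.61, SE 0.31, adjusted p = 0.0217), beside 0.02 in the other spots. With DESeq2, Id4 and mt-Atp8 did not pass (adjusted p = 0.117 and 0.0581). The change in choroid plexus spots less that in other spots did not pass limma's test on differences within sections for these 3, with differences of -1.23 (adjusted p = 0.214), -1.33 (adjusted p = 0.0897) and -1.52 (adjusted p = 0.0897) on the log2 scale. Lars2 and Gm42418 passed in each of 20 alternatives, whereas Id4 passed in 13, mt-Atp8 in 14 and mt-Nd4l in 17. Without PTX section 2 there were 4 calls, and Id4, mt-Atp8 and mt-Nd4l were lost.

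**Figure D5:**
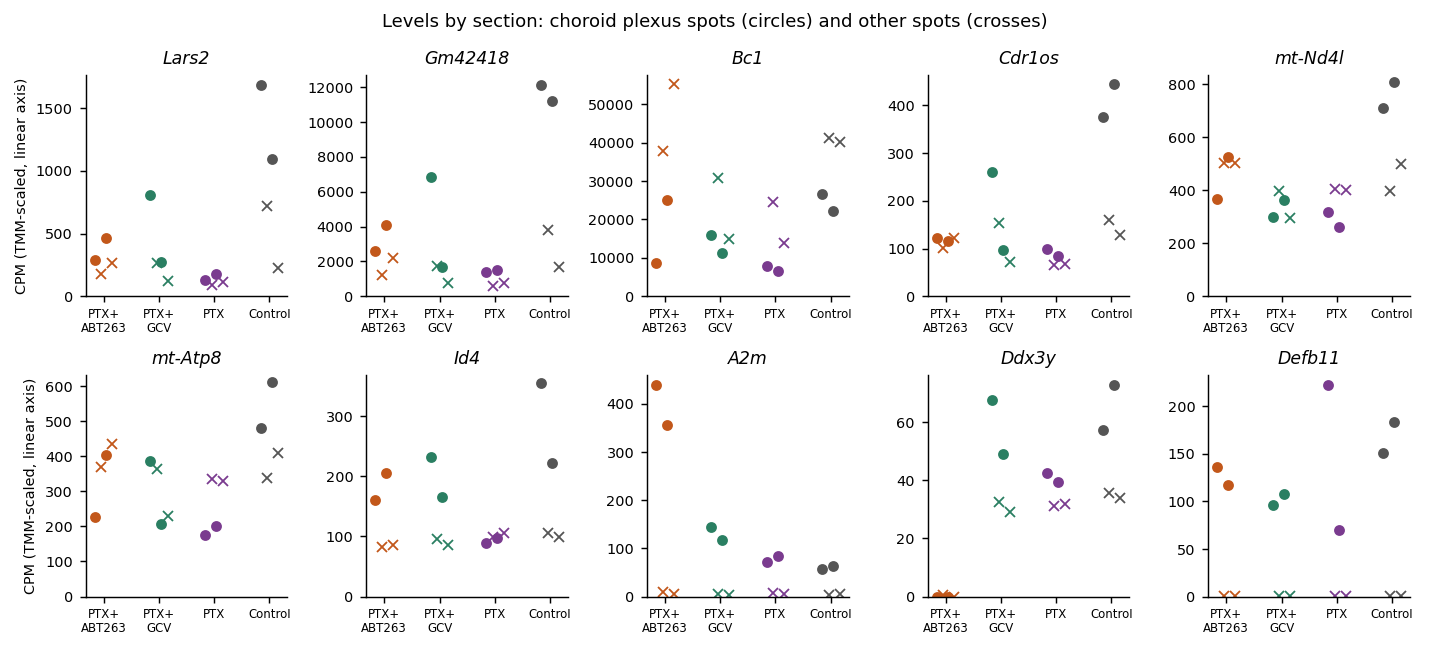
CPM scaled by TMM factors (linear axes from 0, 1 per gene) of the genes that passed in any comparison, by section. Circles are choroid plexus spots and crosses the other kept spots of the same section. Lars2, Gm42418, Bc1 and Cdr1os are lower in PTX than in Control in both, A2m is high in the choroid plexus spots labelled PTX+ABT263, and Ddx3y is at 0 in those spots.

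Genes higher in PTX without passing included Trpv4, a calcium channel of the choroid plexus epithelium that responds to swelling, with 293 and 240 CPM in PTX and 94.1 and 131 CPM in Control (log2 fold change 1.23, adjusted p = 0.427). Apod, an apolipoprotein, had 685 and 773 CPM in PTX and 366 and 436 CPM in Control (adjusted p = 0.322). The nuclear RNA Neat1 had 430.0 and 338 CPM in PTX and 172 and 208 CPM in Control (adjusted p = 0.337). Map6, a microtubule-stabilizing protein of neurons, had 4 and 18 UMIs in PTX and 0 and 0 in Control, at least 5.59-fold higher over a floor of 3 UMIs per group (adjusted p = 0.319). Leng8 had 113 and 76.1 CPM in PTX and 31.4 and 29.1 CPM in Control (adjusted p = 0.494).

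In none of the choroid plexus lists did a gene pass. Of 14 secreted proteins 0 passed, with a median log2 fold change of 0.19, of 16 genes of ion and water transport 0 (0.07), of 14 carriers 0 (0.12), and of 9 receptors and transcription factors 0 (-0.12), beside 0.01 over all genes tested. Enpp2 had 21570 and 18310 CPM in PTX and 12300 and 21160 CPM in Control, and Igf2 had 884 and 861 CPM in PTX and 1118 and 1414 CPM in Control (log2 fold change -0.54, adjusted p = 0.959). Of 7 cell cycle inhibitors and p53 genes 0 passed and 5 were lower in both PTX sections than in both Control sections, where 17.0% of all genes were lower without overlap and 16.7% higher. Their median was -0.42 and ran between -0.62 and -0.28 over the alternatives. Cdkn1c (p57), an inhibitor that choroid plexus epithelium is known to express, had 109 and 94.3 CPM in PTX and 235 and 213 CPM in Control (-1.15, SE 0.30, adjusted p = 0.263). Of 12 mitochondrially encoded genes the 2 named above fell, 0 rose, and the median was -0.22. Marker lists of other cells had medians of 0.39 for oligodendrocytes, 0.32 for neurons, -0.38 for astrocytes and -0.13 for ependyma, with 0 genes passing, and their part in the 7 calls was not tested.

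PTX+GCV against PTX addressed the removal of cells that express p16Ink4a. Here 0 of 4882 genes passed in either direction (0% higher and 0% lower), while 267 had an unadjusted p under 0.05 and DESeq2 called 0. Genes of the respiratory chain encoded in the nucleus mostly had lower values in PTX+GCV. Of 28 such genes 26 had a negative log2 fold change and 16 were lower in both PTX+GCV sections than in both PTX sections, against 18.0% of all genes lower without overlap and 18.0% higher. Their median was -0.40, beside -0.004 over all genes, and ran between -0.54 and -0.27 over the alternatives. In the other spots of the same sections their median was -0.15.

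Cytochrome c oxidase subunit Cox6c had 2130 and 2310 CPM in PTX+GCV and 4026 and 2744 CPM in PTX (-0.61, SE 0.20, adjusted p = 0.781). Cox8a had 2004 and 2623 CPM in PTX+GCV and 3719 and 2866 CPM in PTX (-0.51, adjusted p = 0.863), and Ndufa4 had 1433 and 1644 CPM in PTX+GCV and 2731 and 1886 CPM in PTX (-0.58, adjusted p = 0.781). The levels in PTX section 2 were nearer to PTX+GCV than those in PTX section 1. The lowest p-values among lower genes belonged to Sec61b, a subunit of the translocon of the endoplasmic reticulum, with 77.5 and 68.5 CPM in PTX+GCV and 284 and 155 CPM in PTX (-1.54, adjusted p = 0.781), and to Ndufb1-ps, the import factor Tomm7, Rpl22l1 and the assembly factor Cox20, with log2 fold changes of -0.87, -0.87, -1.02 and -1.26. Among higher genes they belonged to Lars2, with 804 and 274 CPM in PTX+GCV and 132 and 180 CPM in PTX (1.76, adjusted p = 0.434), and to the glial proteolipid Gpm6b, the SNARE protein Vti1b, the sulfatase Sulf2 and Paip1, with log2 fold changes of 1.23, 1.16, 1.86 and 1.70. Gm42418 went the same way as Lars2, with 6854 and 1693 CPM in PTX+GCV and 1375 and 1512 CPM in PTX.

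The secreted proteins had a median of -0.19, ion and water transport -0.21, the carriers -0.24, and the receptors and transcription factors -0.06, with 0 of 14, 16, 14 and 9 genes passing. Enpp2 had 15390 and 18480 CPM in PTX+GCV and 21570 and 18310 CPM in PTX. Oligodendrocyte and astrocyte genes had medians of 0.49 and 0.57, with 0 of 11 and 0 of 10 passing, and PTX+GCV sections had 122043 and 127139 UMIs in these spots against 283014 and 404611 in PTX. The part of these differences in content and depth was not tested. Without PTX section 2 there were 8 calls, and without PTX+GCV section 2, PTX+ABT263 section 1 or PTX+ABT263 section 2 there were 2 each.

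PTX+ABT263 against PTX addressed the senolytic drug, in sections that also differ in sex. Of 4882 genes 1 rose (0.0205%) and 1 fell (0.0205%), with 263 at an unadjusted p under 0.05 and 1 called by DESeq2. The gene that rose was A2m, which encodes alpha-2-macroglobulin, a broad inhibitor of proteases that is secreted into plasma and binds growth factors. A2m had 439 and 357 CPM in the sections labelled PTX+ABT263 and 70.9 and 85.2 CPM in PTX (log2 fold change 2.33, SE 0.28, adjusted p = 8.6e-05). It had 145 and 117 CPM in PTX+GCV (0.73 against PTX, adjusted p = 0.863) and 57.5 and 63.0 CPM in Control, so the 2 sections labelled PTX+ABT263 lay above the other 6. It passed in each of 20 alternatives, with log2 fold changes between 2.17 and 2.50.

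A2m was also a gene of the choroid plexus spots. It was 10.06 to 58.14 times higher there than in the other spots of the same section, where it had 8.64 and 6.26 CPM in the sections labelled PTX+ABT263, 4.91 and 3.46 CPM in PTX+GCV, 6.36 and 4.62 CPM in PTX, and 3.02 and 6.25 CPM in Control. In those spots its log2 fold change was 0.44, and the difference of 1.79 between both kinds of spots did not pass (limma, adjusted p = 0.153). These levels rest on 177 and 113 A2m UMIs in the sections labelled PTX+ABT263 and on 15 and 28 in PTX.

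The gene that fell was Ddx3y, a Y-linked RNA helicase, with 0 and 0 UMIs in the sections labelled PTX+ABT263 and 9 and 13 in PTX, at least 10.3-fold lower over a floor of 3 UMIs per group (adjusted p = 0.023). It did not pass with DESeq2 (adjusted p = 0.177), with the highest 0.5% of spots or with only the 2 groups in the fit. It was also lost without PTX+ABT263 section 1 and without PTX section 2, fits that leave 1 section in a group. The X-linked Xist had 13 and 7 UMIs in the sections labelled PTX+ABT263 and 0 and 0 in PTX, at least 4.75-fold higher over the same floor.

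Genes with the lowest p-values that did not pass were, among those higher in the sections labelled PTX+ABT263, Bc1, with 8757 and 25090 CPM against 7929 and 6562 CPM in PTX (adjusted p = 0.246), Cox8b, with 2047 and 1427 CPM against 1229 and 532 CPM in PTX (adjusted p = 0.462), Fam81a (1.16) and Lars2 (1.23). Among lower genes they were Sst (somatostatin, a neuropeptide), with 27.3 and 37.9 CPM in the sections labelled PTX+ABT263 and 47.3 and 323 CPM in PTX, Rsrp1 (-1.26), Leng8 (-1.79) and Neat1, with 149 and 215 CPM in the sections labelled PTX+ABT263 and 430.0 and 338 CPM in PTX (-1.08, adjusted p = 0.246). For Sst, PTX section 2 alone was high. The prolactin receptor Prlr, a gene of the choroid plexus list, had 577 and 392 CPM in the sections labelled PTX+ABT263 and 298 and 280 CPM in PTX (0.75, adjusted p = 0.786).

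Among the lists, all 12 mitochondrially encoded genes were higher in both sections labelled PTX+ABT263 than in both PTX sections, where 17.8% of all genes were higher without overlap and 17.1% lower. None of the 12 passed, their median was 0.36, beside -0.01 over all genes, and in the other spots of the same sections it was 0.29. The cytochrome c oxidase gene mt-Co1 had 23850 and 26020 CPM in the sections labelled PTX+ABT263 and 22670 and 20390 CPM in PTX. Of 14 secreted proteins 6 were lower without overlap and 0 passed (median -0.21), for example the iron carrier transferrin (Trf), with 1130 and 1503 CPM in the sections labelled PTX+ABT263 and 1824 and 1661 CPM in PTX. That median ran between -0.45 and 0.05 over the alternatives. Ion and water transport had a median of -0.04, the carriers -0.10, and the receptors and transcription factors 0.12. Oligodendrocyte genes had a median of -0.84, between -1.36 and -0.10 over the alternatives, with 0 of 11 passing and 8 at an unadjusted p under 0.05. Without PTX+ABT263 section 2, 6 of the 11 passed (median -1.36), and with the section score as a covariate 8 passed (median -1.35). Fibroblast genes had a median of 0.52, with 0 of 6 passing. Their part in the rise of A2m was not tested. Without PTX+ABT263 section 2 there were 24 calls, and without PTX+ABT263 section 1, PTX+GCV section 2, PTX section 1 or Control section 2 there were 5, 5, 5 and 4.

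Whether a change in choroid plexus spots differed from that in the rest of the same sections was tested for all 4882 genes with limma. For PTX against Control 1 gene passed (0.0205%), with 190 at an unadjusted p under 0.05. This was Defb11, a beta-defensin, which had 222 and 70.0 CPM in choroid plexus spots of PTX and 152 and 184 CPM in those of Control, while the other spots held 19 and 9 UMIs in PTX and 1 and 2 in Control (difference of log2 fold changes -2.11, SE 0.33, adjusted p = 0.0225). The call therefore rests on few UMIs of the other spots, and it was lost without PTX section 2, without Control section 2, with the replicate number as a block, with a score without Ttr and with other spots over 3 spacings away. For PTX+GCV against PTX 0 genes passed (0%), with 407 at an unadjusted p under 0.05, but there were 14 calls without PTX+GCV section 1 and 40 without PTX+GCV section 2. For PTX+ABT263 against PTX 1 gene passed (0.0205%), with 140 at an unadjusted p under 0.05. It was Ddx3y again, with a difference of 4.96 (SE 0.76, adjusted p = 0.020), which is not a measured rise. Choroid plexus spots of the sections labelled PTX+ABT263 held 0 UMIs, so the prior count sets their log2 level, and the call was lost with a prior count of 0.5 and without PTX section 2.

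The transcript behind the p16-3MR model was not found in these spots. Cdkn2a, the gene of p16Ink4a, had 0 UMIs in the 213 choroid plexus spots of all 8 sections. With the spots of all groups pooled, this allows a share of spots with a UMI of up to 1.41% for counting error only. Taken by section, the upper limit of the 95% interval was 12.3% to 14.8%, again for counting error only. In the other 21115 kept spots it was found in 54 (0.256%), with 9 and 6 spots in the sections labelled PTX+ABT263, 3 and 4 in PTX+GCV, 16 and 9 in PTX, and 2 and 5 in Control. A difference between choroid plexus and other spots, or between groups within them, was not detectable at this depth. Cdkn1a (p21) had 8 and 8 UMIs in choroid plexus spots of the sections labelled PTX+ABT263, 1 and 1 in PTX+GCV, 1 and 5 in PTX, and 5 and 5 in Control. Of 34 genes listed for the senescence-associated secretory phenotype 10 had 0 UMIs in these spots and 10 were tested, and none passed in any of the 3 comparisons, with medians of -0.08 for PTX against Control, 0.18 for PTX+GCV against PTX and 0.12 for PTX+ABT263 against PTX. Igfbp7, one of them, ran between 277 and 466 CPM over the 8 sections.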

How the data were processed

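The authors made whole UMI counts of 32285 features per spot, deposited with array positions. The file headers name Space Ranger 1.2.1 and the submitters' notes mm10 and Seurat 4.0. Whether the sections were processed in 1 batch is not given in the sources used here. The filter on genes and mitochondrial UMIs removed 127 and 137 spots of the sections labelled PTX+ABT263, 67 and 88 of PTX+GCV, 78 and 35 of PTX, and 107 and 129 of Control. The members, lists, tests and alternatives were chosen with earlier results of these data known.

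UMIs of the choroid plexus spots were summed per section, without the 7 score genes, which left 98854 to 412673 UMIs. All 8 sections entered 1 fit with edgeR 4.0.16 (filterByExpr, TMM, quasi-likelihood F-test, Benjamini-Hochberg). Each SE was taken as the log2 fold change divided by the root of its F statistic. Differences within a section of log2 CPM (prior count 2) between choroid plexus and other kept spots were tested with limma 3.58.1 (eBayes with trend). DESeq2 1.42.0 was an alternative. Levels against other spots cover genes with a mean of at least 20 CPM and use no TMM factors. Spots are not replicates and were not tested as such. Both tests were checked on simulated counts of 4882 genes for PTX against Control. There edgeR recovered 1.49% of 1.5-fold, 23.9% of 2-fold and 69.7% of 4-fold changes and called 9 unchanged genes, and limma recovered 1.49%, 4.48% and 48.5% and called 1, so that most changes of 2-fold or less would be missed. Deviations of same-numbered sections from their group means correlated at -0.0853 to 0.268 between groups, so the numbers were not taken as pairs.

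Named genes are the 15 highest and 5 lowest against other spots, the genes that passed in a comparison (where fewer than 5 passed in a direction, the 5 of lowest p), without unnamed models, up to 4 genes per list with the highest CPM in choroid plexus spots, and Cdkn2a, Cdkn1a, Xist and the Y-linked genes. Gm42418, mt-Nd4 and Ccdc153 were named after their values were seen. 30 gene lists were written. Gene names are those of the files, and the name Rn18s-rs5 is from RefSeq's gene table. R 4.3.3, Python 3.11.15, numpy 2.4.6, scipy 1.17.1, pandas 2.3.3 and matplotlib 3.10.9 were used. The section images were not used here.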

Additional observations from a re-analysis of the deposited data

Results flagged for a closer look

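For 2 genes the difference between groups in choroid plexus spots, less that in the other spots of the same sections, passed limma's test. Defb11 had a difference of log2 fold changes of -2.11 for PTX against Control, with 222 and 70.0 CPM in choroid plexus spots of PTX and 152 and 184 CPM in those of Control, beside 19 and 9 UMIs in other spots of PTX and 1 and 2 in other spots of Control. It was lost with the replicate number as a block, with a score without Ttr and with other spots over 3 spacings away. Ddx3y had a difference of 4.96 for PTX+ABT263 against PTX, with 0 UMIs in choroid plexus spots and 17 and 0 UMIs in other spots of the sections labelled PTX+ABT263. The prior count sets that value, which is not a measured change and was lost with a prior count of 0.5, and drug and sex cannot be told apart in these sections. Groups of 2 sections are too small for a test of single samples.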

How the results depend on the processing

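The count of genes at least 2-fold higher in choroid plexus spots, 592, stayed within 398 to 849 under 7 settings. It was 594 to 643 when sections were left out in turn. The rule asks for the fold in each section, so leaving out a section removes a condition and this count could hardly fall. For PTX against Control the 7 calls became 13 with no filter on low counts, 2 with the highest 2% of spots and 4 with DESeq2, and 4 to 10 when each section was left out. For PTX+GCV against PTX the 0 calls became 4 with no filter, 5 with the highest 0.5% of spots and 3 with spots at a score of 500 or more (chosen after seeing the data), and 0 to 8 when each section was left out. For PTX+ABT263 against PTX the 2 calls became 18 with no filter, 1 with the highest 0.5% of spots, 20 with the section score as a covariate, 9 at a score of 500 or more, 1 with DESeq2 and 1 with only the 2 groups in the fit, and 2 to 24 when each section was left out. For the change less that in other spots, the call for PTX against Control was 0 with a score without Ttr and 0 with other spots over 3 spacings away (0 to 5 with sections left out). The call for PTX+ABT263 against PTX was 0 with a prior count of 0.5 (0 to 3 with sections left out), and PTX+GCV against PTX had 0 to 40. With the replicate block there were 7, 0 and 2 calls in choroid plexus spots, and for the change less that in other spots 0, 0 and 1, so that the block changed only the call of Defb11. Where 1 section of a group was left, its spread was taken from the other groups. The causes were not tested. Of the named genes, the 9 results that passed kept their sign in 180 of 180 alternatives and 3 of them (Gm42418, Lars2 and A2m) passed in each, and the 23 that did not pass kept theirs in 456 of 456, with 15 passing in at least 1. These genes were named for their p-values and the alternatives refit the same sections, so the kept signs are no independent support. Depth limits PTX+GCV most, with 98854 and 99523 UMIs beside 191744 to 412673 in the other sections.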
